A study of Mus musculus with 12 samples.

Results

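Spermatozoa from both ends of the mouse epididymis, the cauda and the caput, were compared for DNA methylation at single CpG sites. The comparison used the 3 cauda and the 3 caput samples named by the labels, which are 6 of the 12 samples of the series, and left out the 3 corpus and the 3 testicular samples. Spermatozoa leave the testis unable to fertilise and mature while they pass from the caput through the corpus to the cauda, where they are stored. DNA methylation is the addition of a methyl group to cytosine, mostly where it is followed by guanine (a CpG). In sperm most CpG-poor sequence is methylated, whereas CpG-dense promoters and promoters of genes used by germ cells are largely free of it.

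Both groups came from untreated B6D2F1 mice of the line RBGS002Osb, which carries the transgenes Acr3-EGFP and CAG/su9-DsRed2, aged 10 to 12 weeks. EGFP marks the acrosome and DsRed2 the mitochondria. Each sample was a pool of mice, so the spread between animals within a pool was not measured. According to the study, sperm were sorted by fluorescence, after release from cut tissue for the caput and after flushing of the duct for the cauda. Its methods describe sorting after the cutting of tissue, and centrifugation after the flushing of the cauda. The position along the epididymis and the way of collection therefore changed together and cannot be told apart. Methylation was measured by reduced representation bisulfite sequencing (RRBS), in which fragments next to CCGG are sequenced after a treatment that converts unmethylated cytosine, and the percentage of unconverted reads at a site is its methylation level.

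At 13917 autosomal cytosines, lying in 13891 CpGs, every sample had at least 10 reads. Summed over the sites there were 633674, 852200 and 695526 reads in caput replicates 1, 2 and 3, with median coverages of 30, 41 and 33 reads. The sums were 774308, 668621 and 755056 in cauda replicates 1, 2 and 3, with median coverages of 40, 34 and 39 reads. Depth overlapped between the groups. The cauda samples resembled each other more than the caput samples did. Across sites, Pearson's r was 0.982 to 0.983 between cauda samples, 0.944 between caput replicates 2 and 3, and 0.872 and 0.857 between caput replicate 1 and these 2. Caput replicate 1 correlated with the cauda samples at 0.735 to 0.738 and the other 2 caput samples at 0.917 to 0.923. These coefficients describe sites that share library and base composition, and carry no test. Caput replicate 1 thus stood apart from both groups, and the counts of called sites, and some of the other results, are also given without it.

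Methylation was lower in cauda than in caput spermatozoa at more sites than it was higher. Logistic regression of the reads, pooled by group, called 2445 of the 13917 autosomal sites (17.6%) as different, where a call needed more than 25 percentage points and an adjusted p below 0.01. The level was lower in cauda at 1692 of them (12.2% of sites) and higher at 753 (5.41%). The median difference was -42.5 percentage points at the sites that fell and 36.2 at those that rose, against 0 over all autosomal sites. Without caput replicate 1, 1699 sites (12.2%) were called, 1234 lower (8.87%) and 465 higher (3.34%), and 1646 of these (11.8%) were among the 2445. The shared calls were 1212 lower (8.71%) and 434 higher (3.12%). The 3 caput values did not overlap with the 3 cauda values at 2048 of the called sites, and at 3153 of all autosomal sites (22.7%), 1983 with cauda lower (14.2%) and 1170 with cauda higher (8.41%). Each sample is a pool of haploid cells, and a level between 0 and 100% is a mixture of DNA copies with and without methylation. A change of methylation in the cells, a change in which cells make up the pool, and DNA from outside the cells cannot be told apart.

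The spread between replicates, wide in caput, plays no role in the logistic regression, which rests on read counts alone. limma, which uses that spread, called 28 sites (0.201%), 13 higher and 15 lower in cauda, and all 28 were also logistic calls. Its count was 8 (5 higher and 3 lower) with a pseudo-percent of 5 in place of 1 added to the levels. Without caput replicate 1, a setting chosen after seeing the data, it was 103 (35 higher and 68 lower). Adding an overdispersion term to the logistic regression left 0 sites, with 2378 at an unadjusted p under 0.05. On simulated data this fit did not recover the changed sites. Far fewer sites were changed there than were called here, which makes the adjusted threshold harder to pass. Why the fit left 0 sites was therefore not settled, and its 0 does not show that sites are unchanged. The counts of called sites therefore hold for the reads of these 6 samples, and the number that holds for caput and cauda pools in general is uncertain.

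The called sites were divided by their level in the testicular samples, which entered neither group. Cauda means lay near testicular means, at 2.46% and 2.52% at sites low in testicular spermatozoa and at 96.1% and 95.8% at sites high in them. With calls above 25 points, this left little room for rises at low sites or falls at high sites, so the directions below largely follow from the classes. Among 6314 sites below 20% in testicular spermatozoa, 1240 were called, of which 1238 were lower in cauda. Among 6090 sites above 80% in testicular spermatozoa, 685 were called, of which 676 were higher in cauda. The 1513 sites between these levels held 520 calls, with 445 lower and 75 higher. Without caput replicate 1 the calls were 937 lower and 1 higher at the low sites, 403 higher and 5 lower at the high sites, and 292 lower and 61 higher at those between.

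At the low testicular sites, the mean level was 19.1%, 10.3% and 9.96% in caput replicates 1, 2 and 3 and 2.50%, 2.57% and 2.30% in cauda replicates 1, 2 and 3. Every caput sample lay above every cauda sample, and caput replicate 1 lay far above the other 2. The group means were 13.1% ± 5.16 (SD, n = 3) in caput and 2.46% ± 0.143 (SD, n = 3) in cauda, a difference of -10.7 percentage points, or -7.69 without caput replicate 1. At the high testicular sites, the mean level was 84.6%, 90.9% and 91.8% in the caput samples and 96.1%, 96.2% and 96.0% in the cauda samples. Here every caput sample lay below every cauda sample, and caput replicate 1 was again the farthest. The difference of the means was 7.03 percentage points, or 4.77 without caput replicate 1. For both classes the exact two-sided permutation test gave p = 0.1, the smallest that 3 samples against 3 allow, so no mean over sites can pass a threshold of 0.05 here.

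**Figure D1:**
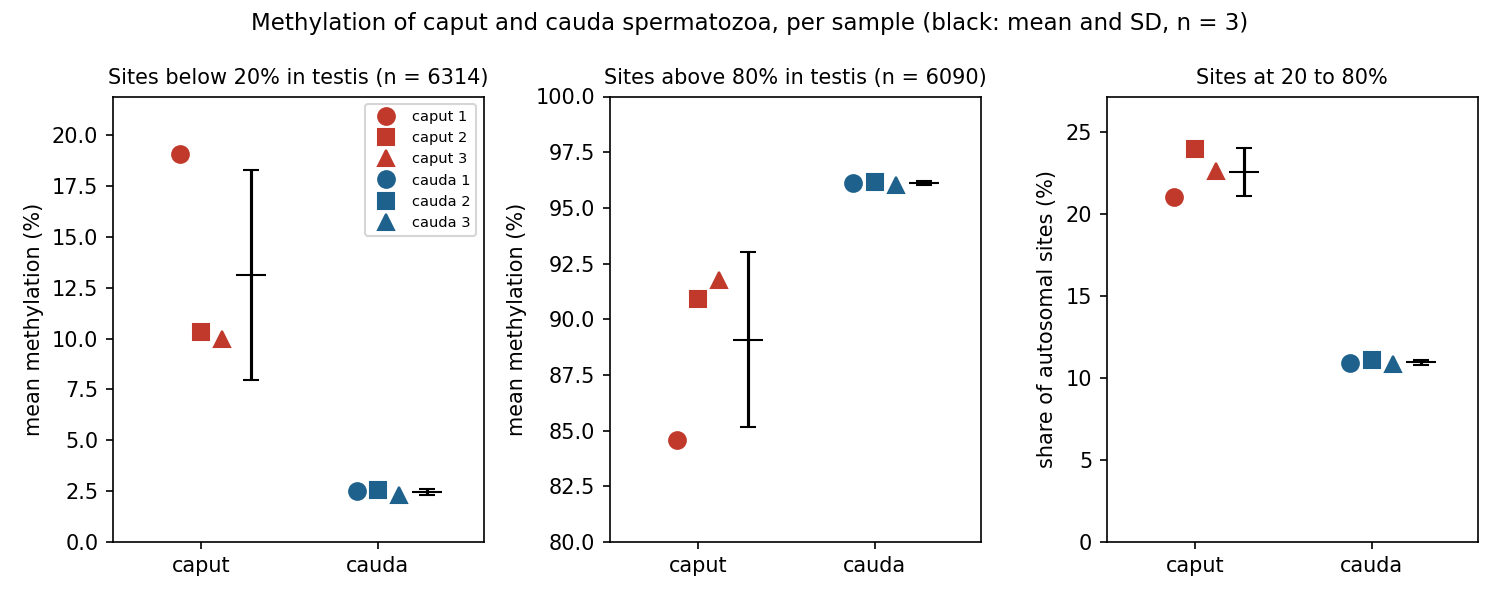
Each point is a sample, with caput in red and cauda in blue, and the black bars give the mean and SD of 3 samples. The left and middle panels show mean methylation in percent at sites low or high in testicular spermatozoa (the middle axis runs from 80 to 100%), and the right panel the share of autosomal sites at 20 to 80%. Caput replicate 1 is the farthest from cauda on the left (19.1%) and in the middle (84.6%), but not on the right (21%).

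Intermediate methylation was more frequent in caput. The share of autosomal sites at 20 to 80% was 21%, 24% and 22.6% in caput replicates 1, 2 and 3, and 10.9%, 11.1% and 10.9% in cauda replicates 1, 2 and 3. The groups did not overlap, and caput replicate 1 lay nearest to cauda. The means were 22.6% ± 1.48 (SD, n = 3) and 10.9% ± 0.132 (SD, n = 3), with p = 0.1 by the exact permutation test. Averaged over all autosomal sites the groups were closer, at 51.8% ± 1.37 (SD, n = 3) in caput and 48.6% ± 0.348 (SD, n = 3) in cauda, since losses and gains partly cancelled. The 11472 sites that were not called averaged 50.7% in caput and 50.8% in cauda.

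Caput replicate 1 departed from cauda in the same direction as the other 2 caput samples, but by more. At the 1699 sites called without it, its level lay outside the range of the cauda samples on the side of the other caput samples at 1649, and on the opposite side of the cauda mean at 23. At the 1234 falls among them, the level averaged 79.7% in caput replicate 1, against 52.3% and 49.9% in caput replicates 2 and 3 and 11.9% to 12.7% in cauda. At the 465 rises it averaged 33.0%, against 55.0% and 59.9% in the other caput samples and 92.1% to 92.3% in cauda. The 1699 sites were called against the same cauda samples, so the count of 1649 shares its controls with the calls. The count to be found without a change in caput replicate 1 was not computed. Replicates of the same group differed at 3901 sites (28%) in caput and at 371 (2.67%) in cauda by a likelihood-ratio test of their reads with an adjusted p under 0.01, which sets the spread between pools against counting error only and takes reads as independent. Between caput replicates 2 and 3 alone, 785 sites (5.64%) differed.

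Promoters, taken as 2 kb to either side of a transcript start, were called less often than the rest. Of 6094 promoter sites, 711 (11.7%) were called, 563 lower (9.24%) and 148 higher (2.43%) in cauda. Exons had 212 calls at 877 sites (24.2%) and intergenic sequence 912 at 3891 sites (23.4%), in both cases mostly lower in cauda. In introns the directions were even, with 308 lower and 302 higher among 3055 sites. With caput replicate 1 left out there were 395 falls and 95 rises in promoters, 127 and 24 in exons, 481 and 159 between genes, and 231 and 187 in introns. In promoters the mean level was 25.4%, 22.4% and 21.9% in caput replicates 1, 2 and 3 and 19.6%, 19.7% and 19.2% in cauda replicates 1, 2 and 3. All caput values exceeded all cauda values, by a mean of 3.70 percentage points (the cauda minus caput difference was -3.70, exact permutation p = 0.1). Outside promoters the means were 74.0% ± 0.980 (SD, n = 3) in caput and 71.2% ± 0.401 (SD, n = 3) in cauda, again without overlap between the groups.

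Calls became rare where CpGs were dense. With 1 to 5 CpGs within 100 bases to each side of the site, 20.7% of 5400 sites were called, and with 6 to 10 CpGs, 21.4% of 5298. The share was 9.15% of 1846 sites with 11 to 15 CpGs and 1.68% of 1373 sites with 16 or more, where the 23 calls were lower in cauda. The shares without caput replicate 1 were 13.8%, 15.2%, 7.64% and 0.874%, with 12 calls in the densest class. Median coverage fell from 42 reads in the sparsest class to 30 in the densest, and the part of coverage in this gradient was not tested. Among low testicular sites alone the share called was 41.0% with 1 to 5 CpGs, 24.7% with 6 to 10, 8.44% with 11 to 15 and 1.55% with 16 or more. Leaving out caput replicate 1 gave shares of 29.9%, 18.8%, 7.34% and 0.774%.

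**Figure D2:**
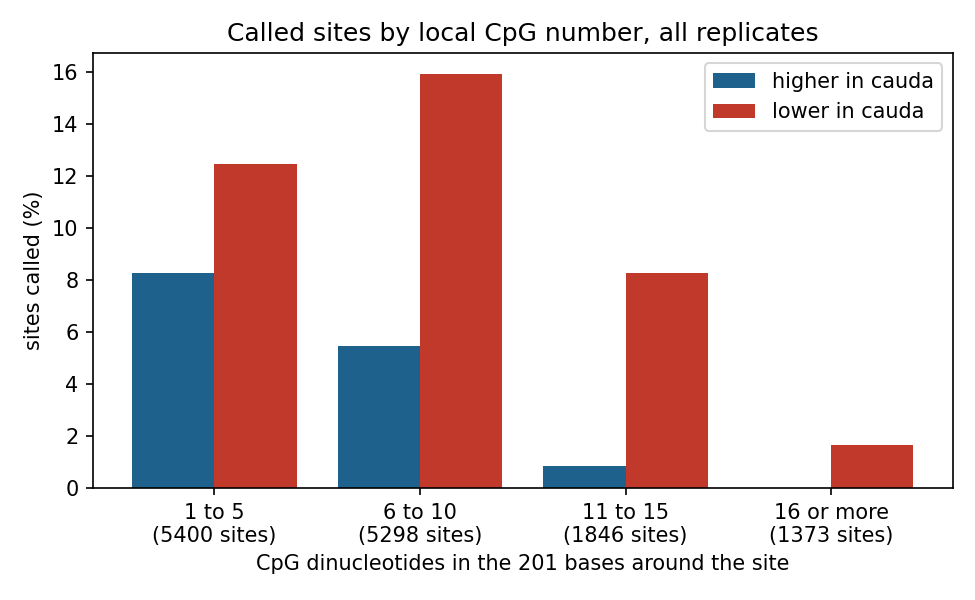
The bars give the percentage of autosomal sites called higher (blue) or lower (red) in cauda than in caput, by the number of CpGs within 100 bases to each side of the site, with all replicates. Both directions were least frequent in the densest class, where 1.68% of 1373 sites were called in all.

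Called sites that lay close together moved the same way. Of 657 neighbouring pairs of called sites within 100 bp, 657 had the same direction. Such neighbours are often read on the same fragment and are not independent. The calls fell on all 19 autosomes, and on each of the 19 more sites were lower than higher. They touched 1015 of the 4563 genes with a measured site, and 116 genes held 3 or more. In 78 of these 116 all called sites were lower in cauda and in 22 all were higher.

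The widest separation among falls outside chromosome 18 was in Cald1, which encodes the actin-binding protein caldesmon. At position 34755733 of chromosome 6 (GRCm38), in a coding exon, the levels read 77.8%, 81.8% and 87.5% in caput replicates 1, 2 and 3 and 0% in each cauda sample, with 11 to 43 reads a sample. Caput replicate 1 was not the farthest from cauda at this site. The 113 cauda reads without methylation allow a level of up to 2.65%, for counting error only, since reads copied by PCR are not independent molecules. The difference was -81.5 percentage points, with an adjusted p of 8.25e-31 by logistic regression and 0.00247 by limma. All 7 sites measured within this stretch were called, with differences from -82.4 to -74.1 percentage points. An eighth Cald1 site, in an intron at position 34761744, was at 94.4%, 97.9% and 89.4% in caput and 100% in each cauda sample and was not called.

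Other wide falls outside chromosome 18 lay in genes of varied function. Taar4, a trace amine receptor of olfactory neurons, had the largest difference of all called sites, -83.6 percentage points, in its coding exon at position 23960902 of chromosome 10, with 100%, 100% and 82.4% in caput and 12.5%, 15.8% and 0% in cauda, on 12 to 38 reads. Just outside Irx1, a homeobox transcription factor gene, position 71957623 of chromosome 13 was at 85.7%, 66.7% and 72.7% in caput and at 0% in each cauda sample, on 11 to 24 reads, where 0 of 47 cauda reads allow up to 6.38%. An intronic site of Epsti1 at position 77921336 of chromosome 14 stood at 98%, 70.2% and 65.9% in caput and at 0% in each cauda sample, where 0 of 135 reads allow up to 2.22%. These sites, like the remaining 6 of the 10 widest falls (in introns of Ispd, Gnrhr and Hs6st3 and between genes, nearest to Psmc1, Vwde and Smad3), were chosen because the groups did not overlap and because they were called with and without caput replicate 1, so neither property is a sign of stability. limma called those at Cald1, Irx1 and near Smad3.

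Rises, again outside chromosome 18, had smaller gaps between the groups. In an intron of Pex7, whose product imports enzymes into peroxisomes, position 19893437 of chromosome 10 was at 31.8%, 13.9% and 37.0% in caput replicates 1, 2 and 3 and at 100%, 100% and 95.7% in cauda replicates 1, 2 and 3, on 21 to 36 reads. The groups were 58.6 points apart at their nearest samples. In an intron of Morn3, within 2 kb of its start, position 123046591 of chromosome 5 was at 0% in each caput sample and at 58.3%, 75% and 75% in cauda, on 12 to 24 reads. The caput reads allow up to 25%, 12.5% and 18.8%, and the groups stay apart. The noncoding RNA gene Gm16287 had 41.5%, 40.6% and 36.5% in caput and 98.5%, 98.5% and 100% in cauda at position 139176086 of chromosome 4, on 41 to 74 reads, where the caput samples were close together. Of the 10 widest rises 4 lay between genes, nearest to Ptpru, Uncx, Gja3 and Parp11, and the others lay in or near Gm48884, Lhpp and Tenm2. limma called those at Morn3, Gm48884 and near Uncx. At each of these, and of the falls named above that limma called, every sample of a group stood at 0% or 100%. That group therefore showed no spread, and limma takes no account of read depth. Not every such site was called, as near Ptpru.

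Outside chromosome 18, the genes with the most called sites were Gm6440 with 9, Tfap2b with 8, Cald1 and Zfhx3 with 7, and Cdh13, Hs6st3, Lima1, Gm42642 and Susd1 with 6. Gm6440 and Gm42642 are processed pseudogenes, where reads of similar copies may be confused. In Tfap2b, a transcription factor gene of neural crest and kidney, the 8 called sites were lower in cauda, and mean methylation over its 12 measured sites was 55.7%, 19.6% and 28.6% in caput and 1.90%, 2.73% and 1.41% in cauda. Caput replicate 1 was far above the other 2 there. In Cdh13, which encodes T-cadherin, the 6 called sites were also lower, while the 13 measured sites averaged 87.3%, 76.2% and 71.5% in caput and 55.5%, 56.0% and 53.3% in cauda. Zfhx3, a homeobox transcription factor, held 5 falls and 2 rises among 29 sites, and Lima1, an actin-bundling protein, 5 rises and 1 fall. When caput replicate 1 was left out, Zfhx3 kept 4 of its 7 calls and Lima1 3 of its 6, and the Lima1 fall became a difference of 8 percentage points, which was not called.

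Among germline genes, 6 of the 12 measured held called sites. The list of 53 germline genes had 35 measured sites in 12 genes, of which 14 were called (40%, against 17.6% of all autosomal sites), all lower in cauda, and 13 without caput replicate 1. The median difference of the 35 was -1.61 percentage points. All 14 lay among its 20 promoter sites, in 10 genes, whose median difference was -48.0 percentage points against 0 over all promoter sites. Over these 20 sites the mean was 67.1%, 46.3% and 52.8% in caput replicates 1, 2 and 3 and 13.8%, 15.7% and 17.4% in cauda replicates 1, 2 and 3. Each caput sample lay above each cauda sample, and caput replicate 1 was the highest. The genes with calls were Dazl, D1Pas1, Meioc, Tdrd6, Tex101 and Tex14. The promoter sites of Smc1b, Smc3, Mei1 and Tdrd9 were not called.

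Dazl encodes an RNA-binding protein needed for germ cell development. Its 3 measured sites, upstream of the start, averaged 76.5%, 63.8% and 47.1% in caput and 2.38%, 5.78% and 2.81% in cauda. D1Pas1, a DEAD-box RNA helicase gene of the testis, averaged 89.9%, 48.7% and 71.1% at its 3 sites in caput, and 0%, 0% and 4.85% in cauda. In both genes the caput values were scattered and the cauda values were near 0. Tdrd6 and Tex14 were less clear. Tdrd6, a gene of the chromatoid body, averaged 79.7%, 61.8% and 81.7% over 3 sites in caput and 39.4%, 53.3% and 61.6% in cauda, and at its called site at position 43628471 of chromosome 17 the groups overlapped. Tex14, needed for the bridges between germ cells, averaged 90.8%, 75.3% and 76.3% over 6 sites in caput and 56.2%, 56.4% and 55.9% in cauda, with 3 of the 6 called. Tex101, a surface glycoprotein of germ cells, was at 82.6%, 33.9% and 59.4% in caput and 0% in each cauda sample, and Meioc, a meiotic regulator, at 90.3%, 83.7% and 71.4% in caput and 17.9%, 0% and 11.5% in cauda. Of the 44 sperm structure and function genes, 7 were measured at 14 sites, and 1 site was called (7.14%, against 17.6% of all autosomal sites), lower in cauda, at Izumo1, which encodes the sperm protein that binds the egg. This site also lies in the promoter of the neighbouring gene Rasip1, and without caput replicate 1 it was not called, at a difference of -32.8 percentage points in place of -39.2.

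Among genes of the epididymal epithelium, calls were confined to Krt18 and Emx2. Of 24 sites in 5 of the 26 genes listed, 6 were called (25%, against 17.6% of all autosomal sites), all higher in cauda, and 5 of these without caput replicate 1. The median difference of the 24 was 0, as over all autosomal sites. Of the 6 calls, 5 lay in or near Krt18, a keratin of simple epithelia, whose sites averaged 43.0%, 57% and 52.7% in caput and 93.1%, 93.5% and 86.4% in cauda. The groups were clearly apart. The other was in Emx2, a homeobox gene of the urogenital tract, at 16.2%, 40.9% and 29.4% in caput and 82.4%, 75.9% and 82.1% in cauda. Epcam, Esr1 and Pax2 had no called site. The median difference was -10.4 percentage points in Epcam and -4.55 in Esr1. Epcam averaged 92.5%, 74.5% and 84.5% in caput and 81.8%, 74.1% and 67.3% in cauda, where the groups overlapped. Of the 17 blood and immune genes, 4 had 12 measured sites, with 1 call (8.33%, against 17.6% of all autosomal sites), in Runx3, at 25%, 62.8% and 47.6% in caput and 95.8%, 100% and 100% in cauda. The part of other cell types in these differences was not tested.

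H19 is an imprinted gene methylated on its paternal copy and therefore in sperm. The study used methylation of its promoter region to judge the purity of sorted sperm. The H19 site measured here, at position 142575817 of chromosome 7, lies within the gene. Whether it belongs to the stretch that the study assayed was not checked. It was at 87.1%, 93.2% and 93.7% in caput and 98.9%, 98.4% and 97.1% in cauda, on 125 to 205 reads. Every caput sample lay below every cauda sample, caput replicate 1 lowest, at means of 91.3% ± 3.68 (SD, n = 3) and 98.1% ± 0.962 (SD, n = 3). The difference of 6.83 percentage points was below the threshold for a call, and the part of other cells in it was not tested. In all, 9 of 36 imprinted genes were measured at 17 sites, with 5 calls (29.4%, against 17.6% of all autosomal sites), all lower in cauda and none kept without caput replicate 1. They lay in Mcts2, with 3, in Zim2, and at a site shared by Gnas and Nespas. The Mcts2 sites averaged 68.2%, 22.6% and 16.9% in caput and 0%, 0% and 4% in cauda, so that caput replicate 1 was far above the rest.

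Developmental regulators were mostly unmethylated in both groups. Of 106 genes, 64 were measured at 225 sites, with 27 calls (12%, against 17.6% of all autosomal sites and 11.7% of promoter sites), 24 lower and 3 higher in cauda, and a median difference of -0.847 percentage points. Of these sites 192 lay in promoters, of these or of other genes, and the list was called about as often as promoters in general. Without caput replicate 1 the calls were 18 lower and 3 higher. Falls were found in 10 genes, with 5 each in Shh and Wnt5a, secreted ligands of embryonic patterning, and 3 each in Bmp4 and Hoxc5. Shh averaged 85.7%, 57.1% and 37.8% over its 5 sites in caput and 1.16%, 0.167% and 3.55% in cauda. These sites lie towards the end of Shh, away from its start. They count as promoter sites only through 9530036O11Rik, which overlaps Shh on the other strand. Wnt5a averaged 65.6%, 44.2% and 37.3% over 6 sites in caput and 0.181%, 1.29% and 2.74% in cauda. In both, caput replicate 1 was the highest and all cauda samples were near 0. The rises were in Gata2, Prdm16 and at a site shared by Hoxd3 and Hoxd4, which was at 57.1%, 51.6% and 19% in caput and 92.3%, 100% and 100% in cauda. Among genes of the methylation machinery, 4 of 20 were measured at 10 sites, with 2 calls (20%, against 17.6% of all autosomal sites). Both were lower in cauda, in Tet1, which encodes an enzyme that oxidises methylated cytosine. They lie inside the gene, within 2 kb of an annotated transcript start but far from its outermost start. Housekeeping genes had 3 sites in 2 of 20 genes and no call, at 0 of 3 sites.

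Among the genes of the study's text that were looked up, which are not all that it names, Cald1 held 7 calls and Susd1 6. D1Pas1, described above, was called at its 3 sites, all lower in cauda, with and without caput replicate 1. Susd1, a membrane protein gene with sushi domains, had 6 of 6 intronic sites higher in cauda, with means of 8.20%, 29.4% and 20.9% in caput replicates 1, 2 and 3 and 64.5%, 42.4% and 48.4% in cauda replicates 1, 2 and 3. The groups did not overlap, but neither side was uniform, and cauda replicate 1 was the highest. Notch2, a receptor of cell fate decisions, had 1 of 2 sites called, at position 98147408 of chromosome 3, with 50%, 82.6% and 40% in caput and 100%, 94.1% and 100% in cauda. The measured sites of Notch2, Nfatc2 and Ankrd36 lie outside the regions that the study lists for these genes. Nfatc2, Ankrd36, Capn2 and Ldb3 had no called site, and Zbtb45, Ano8, Irf8, 1700123L14Rik and Apoa1 had no measured site. Measured sites are those of the deposited counts, where every sample had at least 10 reads. The study lists changed regions between caput and testicular spermatozoa for Zbtb45, Ano8, Irf8 and 1700123L14Rik, which could not be examined here. Whether the Capn2 and Ldb3 sites are those that the study assayed was not checked.

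Sequences of 75 bases to each side of a called site (GRCm38, plus strand) are shown for loci with several called sites, with the measured CpGs in capitals, to show how closely the sites sit and that other CpGs of the same stretch were not measured. Cald1 lies at chr6:34755658-34755808 in a coding exon, Dazl at chr17:50294134-50294284 upstream of the gene, D1Pas1 at chr1:186967193-186967343 upstream of the gene, and Wnt5a at chr14:28509267-28509417 in an intron, and these 4 were lower in cauda. Krt18 at chr15:102029454-102029604, in a coding exon, and Susd1 at chr4:59360866-59361016, in an intron, were higher in cauda.
Cald1: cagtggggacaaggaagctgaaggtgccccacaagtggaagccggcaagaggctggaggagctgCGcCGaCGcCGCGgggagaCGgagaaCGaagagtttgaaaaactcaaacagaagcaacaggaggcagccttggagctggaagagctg
Dazl: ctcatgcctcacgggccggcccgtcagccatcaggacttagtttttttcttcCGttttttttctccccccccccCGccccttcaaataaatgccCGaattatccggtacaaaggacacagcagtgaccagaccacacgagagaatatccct
D1Pas1: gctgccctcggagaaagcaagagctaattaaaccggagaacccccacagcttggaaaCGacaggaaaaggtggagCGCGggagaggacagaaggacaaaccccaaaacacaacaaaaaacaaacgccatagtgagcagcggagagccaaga
Wnt5a: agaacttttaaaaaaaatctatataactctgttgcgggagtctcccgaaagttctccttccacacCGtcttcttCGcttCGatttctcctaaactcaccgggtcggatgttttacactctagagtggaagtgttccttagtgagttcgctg
Krt18: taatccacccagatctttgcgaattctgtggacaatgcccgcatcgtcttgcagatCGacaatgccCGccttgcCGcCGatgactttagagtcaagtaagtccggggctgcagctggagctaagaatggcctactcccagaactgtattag
Susd1: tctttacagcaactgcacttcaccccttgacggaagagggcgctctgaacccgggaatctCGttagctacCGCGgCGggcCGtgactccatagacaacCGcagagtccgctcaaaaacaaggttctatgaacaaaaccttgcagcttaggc

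The measured CpGs number 7 of 8 in the Cald1 window, 3 of 8 in Dazl, 3 of 7 in D1Pas1, 3 of 8 in Wnt5a, 4 of 8 in Krt18 and 6 of 10 in Susd1. The motif CCGG, which reads the same on both strands and is cut to make the fragments, was found in each of these windows, as in 99.6% of windows of this length around all autosomal sites. It therefore reflects how sites were sampled. Within a locus the sites were alike in most samples. In Wnt5a, the 3 marked sites were at 90.8%, 86.0% and 83.2% in caput replicate 1, at 69.6%, 69.3% and 67.6% in caput replicate 2 and at 51.8% at each site in caput replicate 3, while the cauda samples did not exceed 5.48%. Krt18 was less even, and its marked site at position 102029521 was at 48.8% in caput replicate 1 but at 83.3% and 80% in caput replicates 2 and 3.

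**Figure D3:**
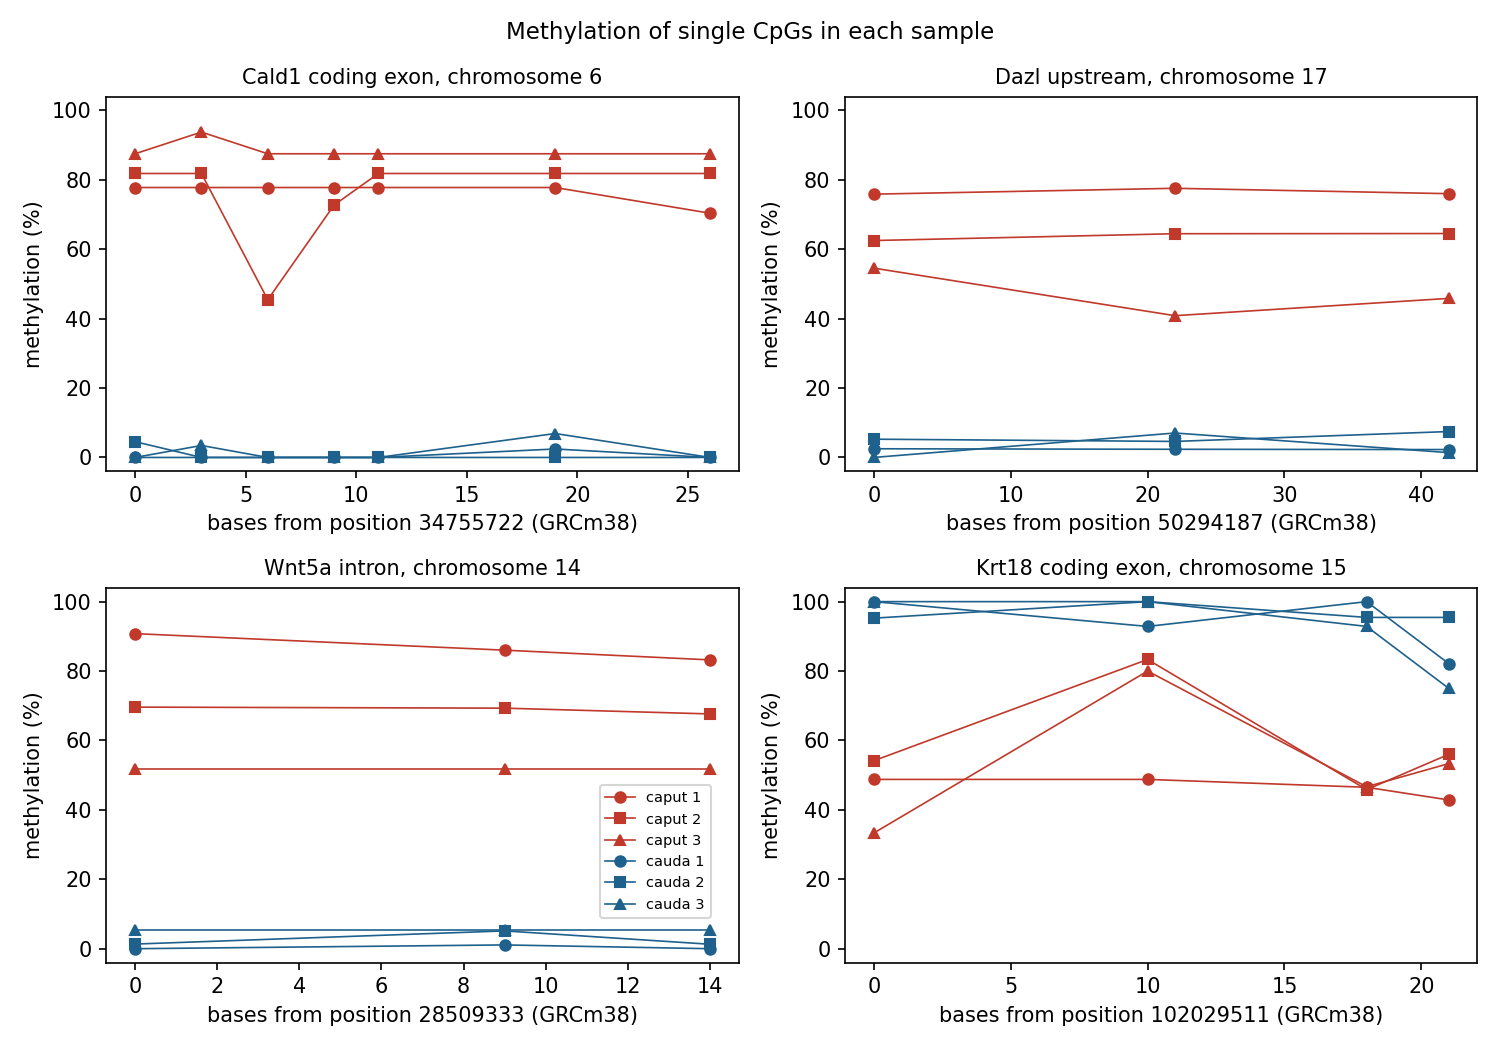
Each point is the methylation level (percent) of a single CpG in a sample, plotted against its distance in bases from the leftmost site, with caput in red and cauda in blue. In the Cald1, Dazl and Wnt5a panels the cauda samples lie near 0, and in Krt18 they lie above the caput samples at each of the 4 sites.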

How the data were processed

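Sperm methylation was measured by RRBS. Per the labels' processing notes and the methods, the authors trimmed reads with Trim Galore 0.4.1, aligned them to GRCm38 with Bismark 0.16.1 and called differences with methylKit. The deposited counts give all, methylated and unmethylated reads per site and sample, not normalized. The authors' lists of differences and p-values were not used. Percent methylation was 100 times methylated reads over coverage.

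Logistic regression of pooled reads (likelihood-ratio test) was fitted at all 14149 sites, with Benjamini-Hochberg adjustment over all of them. Tested on simulated data, it recovered nearly all changed sites and limma a part of them, while the overdispersion fit and limma with a replicate block recovered none even without scatter between replicates. Means over sites were compared by exact two-sided permutation. limma 3.58.1 used the log2 ratio of methylated to unmethylated percentage, with a pseudo-percent of 1. Intervals and limits of 0 (3 reads of the coverage) cover counting error only. Genes came from GENCODE M21. Python 3.11.15, numpy 2.4.6, pandas 2.3.3, scipy 1.17.1, matplotlib 3.10.9 and R 4.3.3 were used.

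Named sites had non-overlapping groups and calls with and without caput replicate 1, taking the 10 widest gaps in each direction, 1 site per gene or 10 kb. To these were added 8 genes with most calls (ties by mean absolute difference, which left out Susd1), genes of the study's text, and, from 8 gene lists, up to 4 genes with most sites and any with a call. Named genes and sites lie outside chromosome 18. Members and lists were chosen with earlier results of these data known. Alternatives were a coverage of at least 20 reads, stricter thresholds, an overdispersion term, limma, a replicate block, 100-bp windows, pooled reads, other class bounds, 1 kb promoters and leaving out each replicate.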

Additional observations from a re-analysis of the deposited data

How the results depend on the processing

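Counts of called sites depended most on whether the spread between replicates was used. Against 2445 calls (753 higher, 1692 lower), limma gave 28 (13 and 15) with a pseudo-percent of 1 and 8 (5 and 3) with 5. limma without caput replicate 1, chosen after seeing the data, gave 103 (35 and 68). limma with the replicate block and logistic regression with an overdispersion term each gave 0 calls, in both directions, with 2166 and 2378 sites at an unadjusted p under 0.05. Neither of these fits recovered changed sites in simulated data, where far fewer sites were changed than were called here. The simulation therefore does not tell whether these fits could have called changed sites in the real data. A coverage of at least 20 reads gave 1379 (428 and 951) among 7571 sites tested, and a difference above 40 points 1267 (296 and 971). Leaving out each replicate in turn gave 1699 to 2801 calls, 465 to 921 higher and 1234 to 1880 lower, the lowest each time without caput replicate 1.

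Same-numbered caput and cauda samples deviated together with correlations of 0.0239 to 0.0472, too weak to show that the numbers pair them. Still, 6 of 6 samples correlated best with their own number, a hint from the data and not the design. Whether same-numbered samples came from the same mice was not settled. With the replicate number as a block, logistic regression made 2444 calls.

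Adjusting over autosomal sites alone, also chosen after seeing the data, gave 2445 calls. The means and shares kept their direction under each alternative run. Leaving out each replicate moved the difference over low testicular sites from -12.3 to -7.69 points and over high testicular sites from 4.77 to 8.37. It ranged from -3.62 to -2.41 over autosomal sites, from -4.36 to -2.62 in promoters, from -3.14 to -2.25 outside them, and from -12.4 to -10.9 for the share of intermediate sites. Of 322 named sites, 1 changed sign, in Lima1 at position 99780436 of chromosome 15, from -37.2 to 8 points without caput replicate 1 by logistic regression and to 2.50 in limma, with a range of -53.8 to 8 over the left-out replicates. The cause of these changes was not tested.

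Depth limits single sites. At the least covered sites 10 reads stand behind a level, so 1 read is worth 10 percentage points.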

Other observations

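The corpus and testicular samples were not part of the comparison, but their levels at its called sites can be set beside it. At the 753 sites higher in cauda, the mean level was 53.2% ± 20.6 in caput, 77.6% ± 2.21 in corpus, 93.2% ± 0.0930 in cauda and 91.7% ± 0.812 in testicular spermatozoa (SD, n = 3 each). At the 1692 sites lower in cauda, it was 58.3% ± 19.4 in caput, 29.7% ± 5.02 in corpus, 13.8% ± 0.613 in cauda and 16.1% ± 1.07 in testicular spermatozoa (SD, n = 3 each). Corpus lay between caput and cauda in both sets, which were chosen on the caput and cauda values.

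On the sex chromosomes, left out of the counts, 33 of 207 X sites (15.9%) were called, 24 lower and 9 higher in cauda, and 3 of 25 Y sites (12%), all lower. Soft-masked repeats were called at 329 of 2206 sites (14.9%), 269 of them lower and 60 higher, beside 18.1% of the other sites.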
